A study of Mus musculus with 41 samples.

Results

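Matrix metalloproteinases, the zinc enzymes that cut extracellular matrix, and their tissue inhibitors were followed in mouse melanomas after withdrawal of doxycycline. The members are 8 metalloproteinase genes (Mmp1a, Mmp1b, Mmp2, Mmp3, Mmp9, Mmp10, Mmp13 and Mmp14) and 2 inhibitor genes (Timp1 and Timp3), chosen by gene symbol. They were read by 17 probe sets of the 34958 that name exactly 1 gene, and make up 10 of 18194 genes. The tumours came from iBIP mice, a melanoma model driven by a BRAF transgene that doxycycline in the drinking water keeps on, and RNA of 41 of them was hybridised to Affymetrix Mouse Genome 430 2.0 arrays. From the literature, not from the labels, the mice of every group also lack Cdkn2a.

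Grouped by days off doxycycline, there were 4 tumours of day 0, 7 of day 1, 5 of day 2, 6 of day 3, 4 of day 6, 3 of day 9, a single tumour each of days 16 and 29, and 10 late tumours. The late tumours were taken at days 63, 77, 90, 121, 136 and 163. Each sample was a macrodissected piece of tumour with the skin trimmed off, so it holds stromal and immune cells beside melanoma cells. The labels give neither whether late tumours were remnants or regrowths, nor whether each tumour came from its own mouse. If some shared a mouse, the p-values measure only the spread between these samples.

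Collagenases cut fibrillar collagen, stromelysins cut proteoglycans, laminin and fibronectin and help to activate other proenzymes, and gelatinases cut denatured collagen and basement membrane collagen. Membrane-type enzymes such as the product of Mmp14 work at the cell surface, where that protein activates the proenzyme of Mmp2. TIMP proteins bind the active sites of these enzymes, and TIMP3 is held in the matrix. Several of the secreted enzymes, and Timp1, are known as genes induced through MAPK signalling and AP-1, the Fos and Jun transcription factors, in many cell types.

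The 5 members Mmp13, Mmp1b, Mmp3, Mmp1a and Mmp10 lie in this order in 1 cluster on chromosome 9 (GRCm38.p6, from chr9:7272514-7283333 for Mmp13 to chr9:7502342-7510242 for Mmp10). Between Mmp13 and Mmp1b lies Mmp12, and Mmp8, Mmp27, Mmp20 and Mmp7 follow Mmp10. Promoter sequences were at hand for 8 of the 10 members, and the 250 bases before the start of each were searched for TGAGTCA, the AP-1 motif, on both strands. All 5 members of the cluster had 1 match, and Mmp14, Timp1 and Timp3 had none. Of 32851 mouse promoters of the same length, 4.46% held a match. The letters AGGAAG, an ETS core, on both strands, were found in 6 of the 8 members and in 29.5% of all promoters, and no match of this kind overlapped an AP-1 match. A match is a description of letters, and binding was not measured here. The cluster members are printed because they share the motif and a place in the genome while only some of them were called in late tumours against day 0, and Timp1 because it fell in the same late comparison with no such match. Sequences run 5′ to 3′ on the gene's own strand and are from RefSeq, with the AP-1 match in capitals. The windows are chr9:7463891-7464140, plus strand for Mmp1a, chr9:7388027-7388276, minus strand for Mmp1b, chr9:7502092-7502341, plus strand for Mmp10, chr9:7445572-7445821, plus strand for Mmp3, chr9:7272264-7272513, plus strand for Mmp13 and chrX:20869916-20870165, plus strand for Timp1, all in GRCm38.p6.
Mmp1a: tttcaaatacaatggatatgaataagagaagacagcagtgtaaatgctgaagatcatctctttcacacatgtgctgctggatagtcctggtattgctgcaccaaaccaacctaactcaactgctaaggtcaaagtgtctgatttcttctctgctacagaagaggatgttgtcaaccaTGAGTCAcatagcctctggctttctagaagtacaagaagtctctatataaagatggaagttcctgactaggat
Mmp1b: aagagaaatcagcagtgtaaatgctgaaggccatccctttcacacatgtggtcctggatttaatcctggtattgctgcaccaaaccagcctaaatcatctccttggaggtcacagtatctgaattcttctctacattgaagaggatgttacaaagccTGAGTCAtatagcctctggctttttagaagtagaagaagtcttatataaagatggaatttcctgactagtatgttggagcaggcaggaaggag
Mmp10: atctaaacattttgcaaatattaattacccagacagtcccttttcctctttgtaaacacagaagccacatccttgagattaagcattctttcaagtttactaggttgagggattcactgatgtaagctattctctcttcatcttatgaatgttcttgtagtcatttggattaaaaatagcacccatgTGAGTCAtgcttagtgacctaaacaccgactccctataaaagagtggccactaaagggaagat
Mmp3: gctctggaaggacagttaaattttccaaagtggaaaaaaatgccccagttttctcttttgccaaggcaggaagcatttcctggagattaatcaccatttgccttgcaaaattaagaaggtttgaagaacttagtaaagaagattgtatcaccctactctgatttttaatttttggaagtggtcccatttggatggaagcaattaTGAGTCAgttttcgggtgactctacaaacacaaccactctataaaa
Mmp13: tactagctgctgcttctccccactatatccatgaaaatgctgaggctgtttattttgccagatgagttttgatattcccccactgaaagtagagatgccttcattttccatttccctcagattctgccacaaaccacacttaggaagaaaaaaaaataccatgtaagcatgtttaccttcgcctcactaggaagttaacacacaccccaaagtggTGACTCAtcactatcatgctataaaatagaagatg
Timp1: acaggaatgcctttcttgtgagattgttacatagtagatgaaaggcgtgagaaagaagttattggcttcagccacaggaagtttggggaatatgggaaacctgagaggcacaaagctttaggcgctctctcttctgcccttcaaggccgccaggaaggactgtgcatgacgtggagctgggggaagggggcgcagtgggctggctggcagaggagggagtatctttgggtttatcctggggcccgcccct
The AP-1 match began 73 bases before the start in Mmp1a, 93 in Mmp1b, 63 in Mmp10, 46 in Mmp3 and 35 in Mmp13, where it lies on the other strand. The windows of Mmp1a and Mmp1b were identical at 84.8% of 231 aligned positions.

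**Figure D1:**
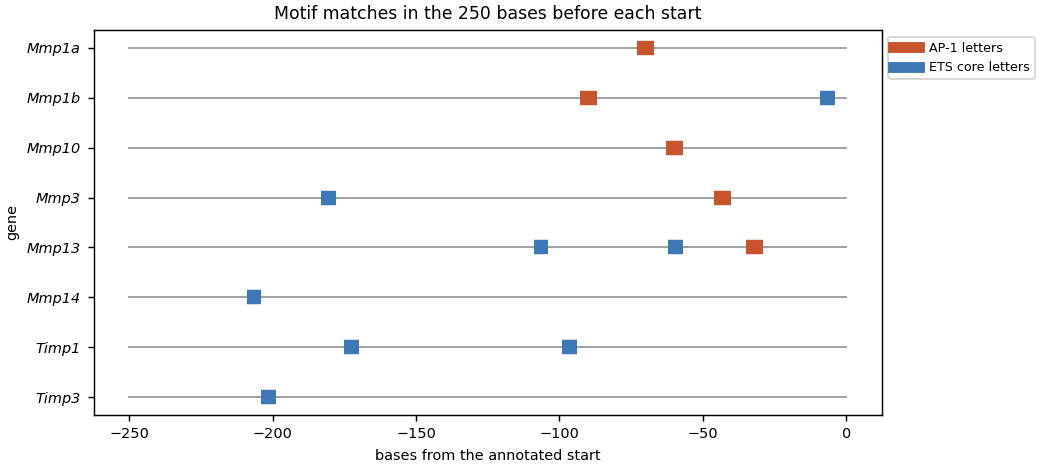
Places of the AP-1 letters (orange) and the ETS core letters (blue) in the 250 bases before the annotated start of the 8 members with a promoter entry; the x axis is the distance in bases from the start. The 5 genes of the chromosome 9 cluster each have 1 AP-1 match, and Mmp14, Timp1 and Timp3 have none.

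Values below are log2 intensities, and differences are differences of group means on the log2(intensity + 16) scale, which understates changes of dim genes. A gene was called when its limma test had a Benjamini-Hochberg adjusted p under 0.05 over the 14319 genes tested, and all 10 members passed the filter on low values. The arrays themselves differed between groups in a pair of measures. Spike-in controls put them in 3 sets, of which 1 held 2 late tumours and all of days 0, 9, 16 and 29, another held 8 late and 6 of the 7 day 1 tumours, and the remaining set held all of days 2, 3 and 6 and 1 day 1 tumour. The Gapdh 3′ probe set exceeded the 5′ one by 2.62 ± 1.38 in the late tumours and 0.45 ± 0.12 at day 0 (log2, SD), a larger gap meaning less signal far from the transcript's 3′ end. This gap was over 2 in 8 of the 10 late tumours, in 1 of the 3 day 9 tumours and in no tumour of the other groups. The part of both in the results was not tested. Values with and without them are given for some of the member calls that they change, and for no gene of the lists or markers below. Of the melanocyte lineage markers, Sox10 averaged 10.06 in late tumours and 10.26 at day 0, whereas the pigment genes Mlana, Tyrp1, Pmel and Dct averaged between 6.04 and 6.80 in late tumours and between 5.34 and 6.25 at day 0, near the 40th percentile of the arrays at 5.67.

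Late tumours against day 0 show the state of these genes long after withdrawal. Collagenase genes Mmp1a and Mmp1b, stromelysin gene Mmp10, gelatinase gene Mmp9, Mmp14 and the inhibitor gene Timp1 were lower in late tumours, and Mmp2 was higher. Mmp3, Mmp13 and Timp3 did not pass the test. So 6 of the 10 members were called lower, where 20.1% of all genes were, and 1 was called higher, where 26.3% of all genes were. In 4 members, Mmp1a, Mmp1b, Mmp14 and Timp1, every late tumour lay below every day 0 tumour, which held for 7.67% of all genes. The median difference was -1.59 over the members and 0.05 over all genes tested. These are bulk tumours, in which fewer cells of a type and less RNA per cell cannot be told apart. All comparisons against day 0 share its 4 tumours, and replicate 1 of day 0 was the highest of the 4 in 9 of the 10 members.

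**Figure D2:**
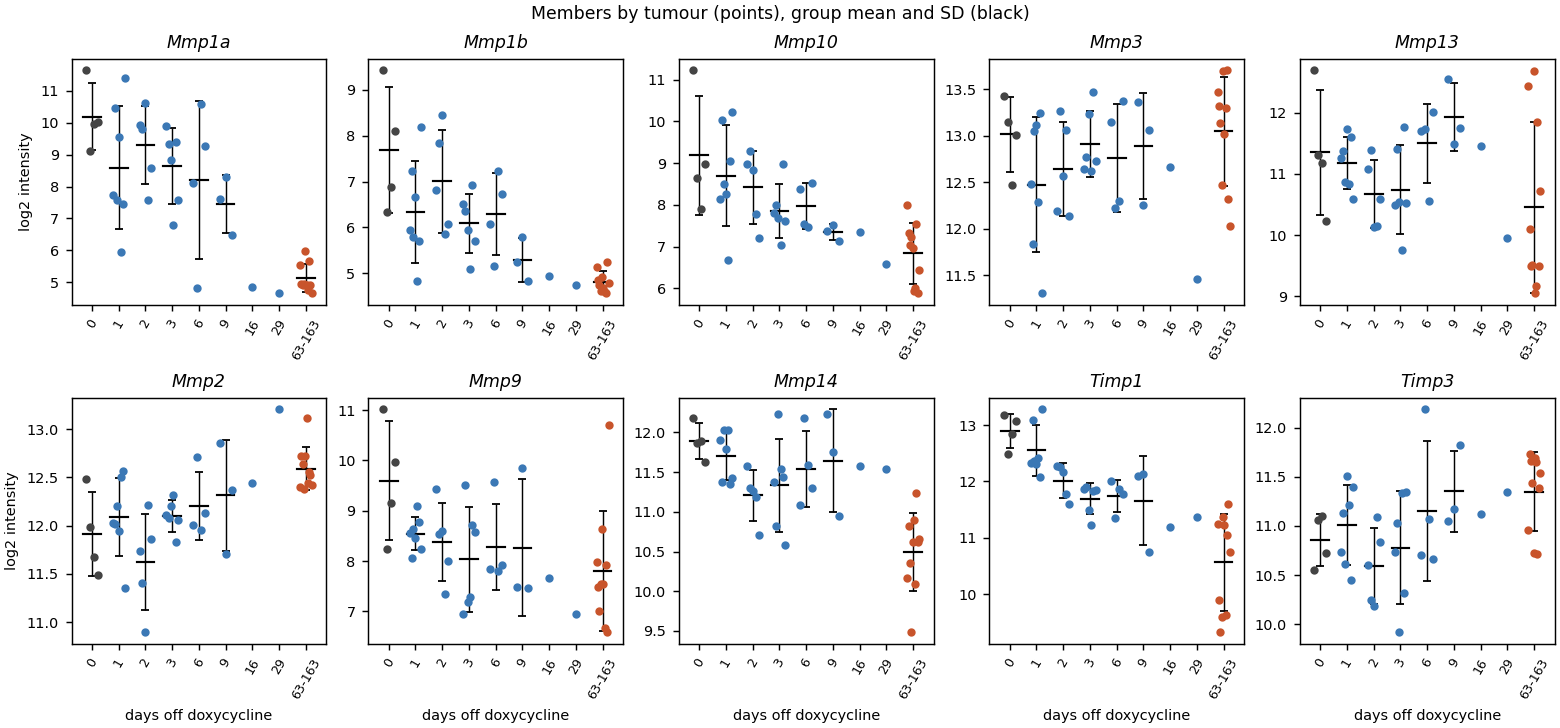
Log2 intensity of each member (y axis, scale set per panel) in every tumour by days off doxycycline (x axis); points are tumours, black bars the group mean with SD, days 16 and 29 hold 1 tumour each. Late Mmp1a lies between 4.65 and 5.99, below all 4 day 0 tumours, while late Mmp3 spans 12.03 to 13.71 around the day 0 values.

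Mmp1a, which in the mouse encodes an interstitial collagenase, showed the largest fall among the members. The late tumours lay between 4.65 and 5.99 with a median of 4.94, against 11.65, 9.12, 9.98 and 10.03 at day 0. In deposited intensity the late tumours lay between 10.1 and 47.0 units, and the day 0 tumours between 541 and 3179 units. The groups did not overlap, and 2 of the 10 late tumours but all 4 day 0 tumours lay above the 40th percentile of their array, so the late values are near the floor of the measurement. The difference was -5.06 ± 0.78 (SE, adjusted p = 4.8e-06). The values at days 1 to 9 spread widely within each day. They ran from 5.95 to 11.40 at day 1, from 7.58 to 10.63 at day 2, from 6.81 to 9.91 at day 3, from 4.81 to 10.60 at day 6 and from 6.49 to 8.30 at day 9. None of these days was called against day 0 for Mmp1a, and the difference at day 9 was -2.73 ± 1.01 (adjusted p = 0.107) although none of its 3 tumours reached the day 0 range. The single tumours at days 16 and 29 had 4.85 and 4.66, inside the late range.

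Mmp1b is the other gene of the same collagenase pair. Its late tumours lay between 4.56 and 5.25 with a median of 4.77, against 9.42, 6.33, 6.88 and 8.09 at day 0. The groups did not overlap, no late tumour passed the 40th percentile of its array, and the difference was -2.87 ± 0.49 (SE, adjusted p = 1.83e-05). Mmp1a and Mmp1b are close copies, and whether each probe set reads only its own gene was not tested. Mmp13, also a collagenase gene, did not pass the test. Its late tumours ranged from 9.05 to 12.68 with a median of 9.80, against 12.69, 11.31, 11.17 and 10.22 at day 0, and the groups overlapped. The difference was -0.90 ± 0.53 (adjusted p = 0.161), and it was 0.92 in the 2 late tumours with a small Gapdh gap (adjusted p = 0.224), which had 12.68 and 11.86. At day 9 Mmp13 had 12.55, 11.49 and 11.75, and its mean of 11.93 was the highest of all groups, without passing the test (difference 0.58 ± 0.68, adjusted p = 0.676).

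Of the stromelysin genes, both in the same cluster, Mmp10 passed the test and Mmp3 did not. Mmp10 lay between 5.88 and 7.997 in late tumours, with a median of 6.997, against 11.22, 8.63, 7.90 and 8.97 at day 0. Late replicate 1, at 7.997, reached into the day 0 range, and the difference was -2.34 ± 0.51 (SE, adjusted p = 0.000379). With the 8 late tumours and the 1 day 9 tumour of large Gapdh gap left out, it was -1.93 (adjusted p = 0.0702). In Mmp3 the late tumours lay between 12.03 and 13.71 with a median of 13.22, against 13.43, 13.15, 12.47 and 13.01 at day 0, so that the groups overlapped. The difference was 0.03 ± 0.32 (adjusted p = 0.944), and -0.84 when the fit blocked on the spike-in set (adjusted p = 0.134).

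The gelatinase genes moved in opposite directions. Mmp2, mostly a product of stromal cells in tumours, had late values between 12.38 and 13.12 with a median of 12.54, against 12.49, 11.99, 11.68 and 11.49 at day 0. Only replicate 1 of day 0 lay within the late range, and the difference was 0.68 ± 0.21 (SE, adjusted p = 0.00774). The second Mmp2 probe set gave 0.70 ± 0.21 (adjusted p = 0.0069). Mmp9, a gelatinase known from neutrophils, macrophages and tumour cells, had late values between 6.58 and 10.70 with a median of 7.54, against 11.02, 8.24, 9.16 and 9.96 at day 0. The groups overlapped, because late replicates 5 and 10 had 8.63 and 10.70, and the difference was -1.79 ± 0.56 (adjusted p = 0.00967). The second Mmp9 probe set gave -1.93 ± 0.57 (adjusted p = 0.00563). Neither call held when the fit blocked on the spike-in set, where Mmp2 differed by 0.56 (adjusted p = 0.174) and Mmp9 by -0.95 (adjusted p = 0.409), and neither held without the tumours of large Gapdh gap (0.73, adjusted p = 0.106, and -1.31, adjusted p = 0.185). Each also hung on a single day 0 tumour, since Mmp9 gave -1.31 without replicate 1 (adjusted p = 0.084) and Mmp2 gave 0.54 without replicate 4 (adjusted p = 0.0574).

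Mmp14, which encodes the membrane-type collagenase, had late values between 9.48 and 11.24 with a median of 10.62, against 12.18, 11.86, 11.89 and 11.62 at day 0. The groups did not overlap, and the difference was -1.39 ± 0.26 (SE, adjusted p = 5.48e-05). The other 2 probe sets of the gene fell by 3.25 ± 0.60 and 1.70 ± 0.24, again without overlap of late tumours and day 0. Across days 1 to 9 the mean of the brightest probe set stayed between 11.21 and 11.70, and no day was called. Of the other 2, the dimmer was called at day 2 (-0.86 ± 0.28, adjusted p = 0.0291), below every day 0 tumour, where 17.3% of all probe sets tested were called.

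Timp1, the inhibitor gene that growth factors and cytokines induce, had late values between 9.33 and 11.60 with a median of 10.90, against 13.18, 12.48, 12.84 and 13.07 at day 0. The groups did not overlap, and the difference was -2.32 ± 0.33 (SE, adjusted p = 1.18e-06), the member with the smallest p. Its group means on days 0, 1, 2, 3, 6 and 9 were, in this order, 12.89, 12.55, 12.02, 11.70, 11.75 and 11.66, and the single tumours of days 16 and 29 had 11.19 and 11.36. Timp3, whose product binds matrix, was read by 4 probe sets that disagreed. The brightest had late values between 10.72 and 11.73, against 10.56, 11.06, 11.10 and 10.73 at day 0, and a difference of 0.49 ± 0.26 (adjusted p = 0.121). The 3 others, from brighter to dimmer, differed by -0.81 ± 0.25 (adjusted p = 0.00839), -0.82 ± 0.29 (adjusted p = 0.019) and -1.03 ± 0.36 (adjusted p = 0.0166). These 4 values, and those of the other probe sets of Mmp2, Mmp9 and Mmp14, were tested over 25803 probe sets, of which 48.6% were called. No direction is given for Timp3.

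**Figure D3:**
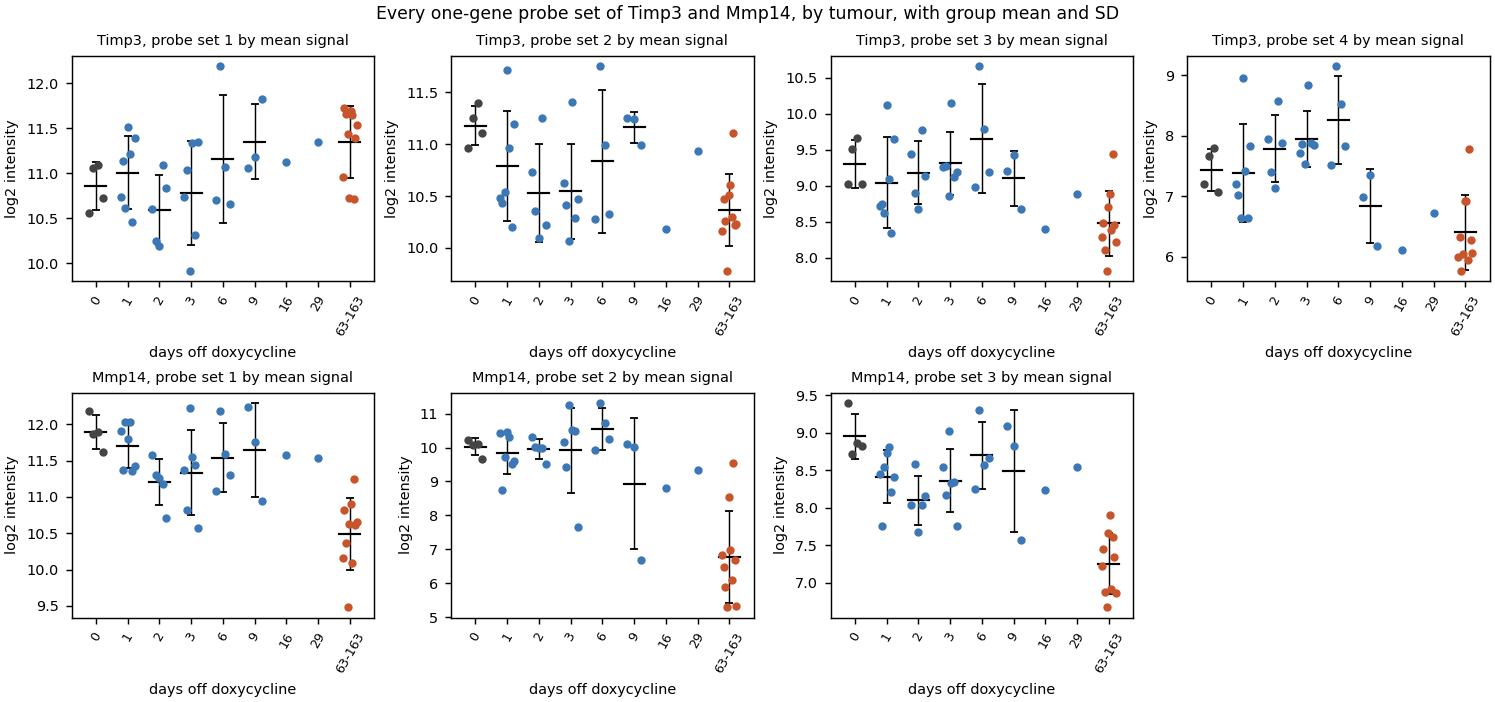
Log2 intensity of every one-gene probe set of Timp3 (upper row) and Mmp14 (lower row) by tumour and days off doxycycline, with group mean and SD in black. The late tumours lie below day 0 in all 3 Mmp14 panels, while for Timp3 the late mean is above day 0 in the first panel (11.35 against 10.86) and below it in the other 3.

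All 17 probe sets of the members were set against the Gapdh gap. Late tumours formed a group of 2 with a gap under 1 and a group of 8 with a gap over 2, so correlations were taken within the 8. The second brightest Mmp14 probe set fell with the gap, with Pearson r = -0.962 (exact permutation p = 0.000248, adjusted p = 0.00422 over 17 relations), Spearman rho = -0.905 (exact p = 0.00456, adjusted p = 0.0776) and r = -0.939 without the 2 tumours farthest from the median gap. The brightest Mmp14 probe set, used for the gene, had r = -0.357 (exact permutation p = 0.399, rho = -0.19 with p = 0.665, adjusted p = 0.522 and 0.869). No other probe set of a member had an adjusted p under 0.05, but with 8 tumours a weaker relation can be missed. Timp1 had r = -0.606 (exact permutation p = 0.111), rho = -0.714 (exact p = 0.0576) and r = -0.878 without the 2 farthest tumours. The dimmest Mmp14 probe set had r = -0.781 (exact permutation p = 0.0222, adjusted p = 0.188). Above 0 was r for Mmp10, both Mmp9 probe sets and the brightest Timp3 probe set. In the second brightest Mmp14 probe set the 2 late tumours of small gap had 8.54 and 9.55, below 9.66, the lowest day 0 value. Without any tumour of gap over 2, the 4 members Mmp1a (-4.37, adjusted p = 0.0141), Mmp1b (-2.94, adjusted p = 0.00907), Mmp14 (-0.96, adjusted p = 0.0356) and Timp1 (-1.68, adjusted p = 0.000106) stayed called lower, while 28.2% of all genes were called in either direction. The same 4 and Mmp10 were called within the spike-in set that holds day 0 and 2 late tumours, as were 16.3% of all genes, and there Mmp1a differed by -5.41 (adjusted p = 0.00605), Mmp1b by -2.66 (adjusted p = 0.0445), Mmp10 by -3.02 (adjusted p = 0.0318), Mmp14 by -1.25 (adjusted p = 0.0322) and Timp1 by -1.72 (adjusted p = 0.0299).

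**Figure D4:**
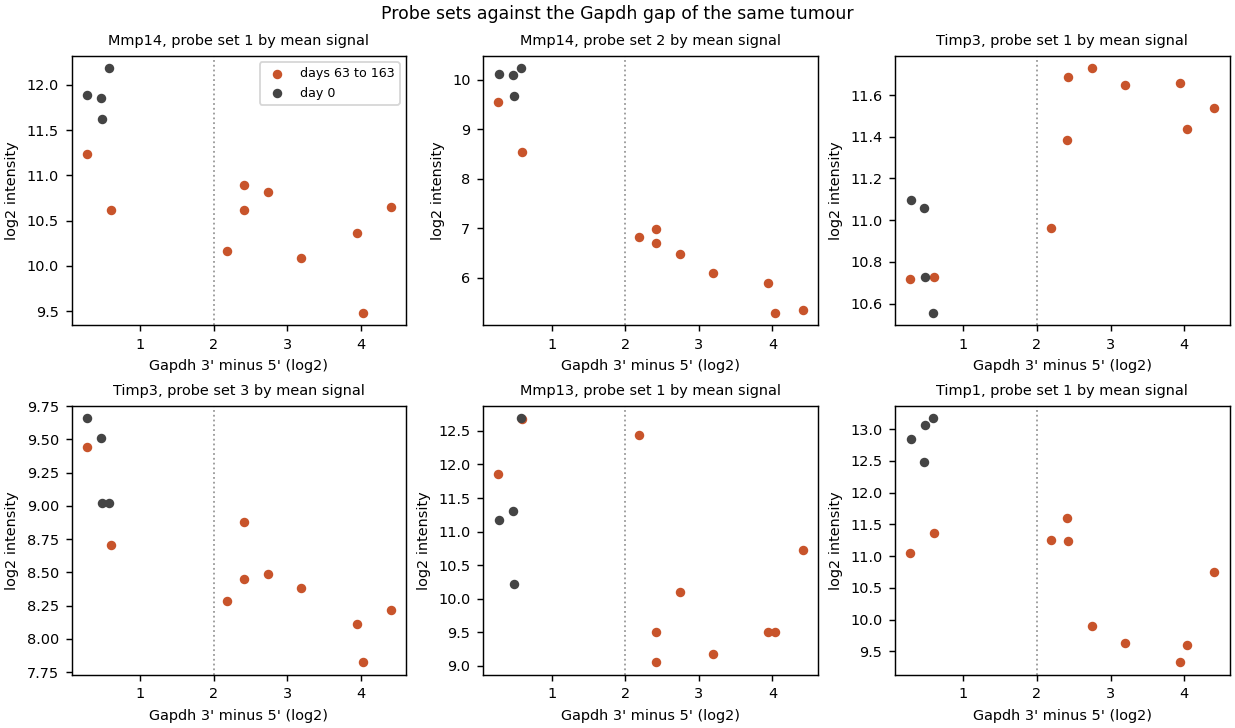
Log2 intensity of 6 probe sets (y axis) against the Gapdh 3′ minus 5′ gap of the same tumour (x axis, log2), for late tumours (orange) and day 0 (dark); the dotted line is the gap of 2. Mmp14 probe set 2 by mean signal falls along the gap among the 8 late tumours beyond the line, and all late Timp1 values lie below day 0 on both sides of it.

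Late tumours against day 1 compare 10 with 7 tumours, most of which shared a spike-in set. Mmp1a, Mmp1b, Mmp10, Mmp14 and Timp1 were again lower in late tumours and Mmp2 higher. Called lower were 5 of the 10 members, where 22.8% of all genes were, and 1 was called higher, where 28.9% were. Mmp14 and Timp1 had no overlap, which held for 3.72% of all genes in this direction. Timp1 lay between 9.33 and 11.60 in late tumours, against 12.08 to 13.28 at day 1, and the difference was -1.98 ± 0.27 (SE, adjusted p = 6.78e-07). Mmp1a differed by -3.46 ± 0.65 (adjusted p = 5.43e-05), Mmp10 by -1.86 ± 0.43 (adjusted p = 0.000543), Mmp1b by -1.52 ± 0.41 (adjusted p = 0.00235) and Mmp14 by -1.21 ± 0.22 (adjusted p = 2.7e-05). Mmp2 differed by 0.50 ± 0.17 (adjusted p = 0.0156), and not without replicate 7 of day 1 (0.38, adjusted p = 0.0646). Mmp3, at 13.05 ± 0.58 in late tumours and 12.48 ± 0.73 at day 1 (SD), differed by 0.57 ± 0.27 (adjusted p = 0.0721). Mmp9 (-0.74), Mmp13 (-0.73) and Timp3 by its brightest probe set (0.34) did not pass either. The dimmest Timp3 probe set was called lower (-0.98 ± 0.30, adjusted p = 0.00617), where 50.8% of all probe sets tested were called. Those between them in brightness gave -0.43 and -0.56 without passing (adjusted p = 0.0913 and 0.0505). Within the spike-in set of 8 late and 6 day 1 tumours, 8 members and 49.1% of all genes were called, the members being those 6 with Mmp3 at 0.89 (adjusted p = 0.0163) and Mmp9 at -0.96 (adjusted p = 0.00693). With 2 late tumours left after dropping those of large Gapdh gap, Timp1 (-1.34, adjusted p = 0.000611) and Mmp3 (1.22, adjusted p = 0.0338) were the members called, beside 26.1% of all genes. There Mmp1a differed by -2.76 (adjusted p = 0.0914), Mmp1b by -1.60 (0.122), Mmp10 by -1.44 (0.15), Mmp14 by -0.77 (0.0696) and Mmp2 by 0.55 (0.197). Immune and other markers differed between these groups too, and their part in the results was not tested. All 6 macrophage markers were called lower, with a mean between 9.26 and 10.49 in late tumours and between 10.93 and 11.90 at day 1, without overlap. All 4 T and NK cell markers were called lower, with a mean between 5.63 and 7.37 in late tumours and between 6.14 and 8.64 at day 1. Both Schwann cell markers were called higher, with a mean between 9.70 and 11.56 in late tumours and between 6.70 and 10.03 at day 1, and 3 of 4 endothelial markers were called higher. Of 6 melanocyte lineage markers, 5 were called higher and 1 lower, and of 6 fibroblast markers, 3 higher and 1 lower. Of 4 mast cell markers, 1 was called higher and 2 lower, of 6 keratinocyte markers 2 higher, and no neutrophil marker was called.

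In the first days after withdrawal few members were called. At day 1 and at day 2 limma called none of the 10, where 13.8% and 15.1% of all genes were called, and at an unadjusted p under 0.05 there was 1 member, Mmp1b, at day 1 and there were 2, Mmp14 and Timp1, at day 2, where 28.3% and 29.8% of all genes passed that limit. At day 2 those 2 lay below every day 0 tumour, as did 10.1% of all genes. Timp1 had 12.27, 12.25, 12.18, 11.79 and 11.60 at day 2, a difference of -0.88 ± 0.37 (SE, adjusted p = 0.105), and Mmp14 differed by -0.68 ± 0.29 (adjusted p = 0.112).

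At day 3 Timp1 and Mmp1b were called lower, 2 of 10 members where 11.6% of all genes were called lower. Timp1 had values between 11.22 and 11.90, all below the day 0 range, as in 10.5% of all genes, and a difference of -1.19 ± 0.36 (SE, adjusted p = 0.0159). Mmp1b differed by -1.59 ± 0.53 (adjusted p = 0.031) with overlap. At day 6 Timp1 alone was called lower, where 6.46% of all genes were, with 12.01, 11.35, 11.87 and 11.77, a difference of -1.14 ± 0.39 (adjusted p = 0.0493) and no overlap, as in 12.4% of genes. At day 9 Mmp1b alone was called lower, where 1.91% of all genes were, with 5.25, 5.80 and 4.83 and a difference of -2.39 ± 0.63 (adjusted p = 0.0237). Mmp1a, Mmp1b, Mmp10 and Timp1 had no overlap with day 0 at day 9, which held for 8.02% of genes.

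These early calls hung on few tumours. The adjusted p of Timp1 at day 3 was over 0.05 without replicate 1 or replicate 4 of day 0 (0.0547 and 0.0562), and that of Timp1 at day 6 was over 0.05 without any 1 of 3 day 0 or any 1 of 4 day 6 tumours, at most 0.122. Mmp1b at day 3 and at day 9 was lost without replicate 1 of day 0 (adjusted p = 0.211 and 0.11), without replicate 4 of day 0 (0.104 and 0.0811) and without single tumours of the day itself, namely replicates 4 and 6 of day 3 (0.0725 and 0.0604) and replicates 1 and 3 of day 9 (0.0662 and 0.217). Days 1, 2, 3 and 6 shared no spike-in set with day 0. Blocked on the set, Timp1 differed by -0.15 at day 3 (adjusted p = 0.953) and -0.10 at day 6 (adjusted p = 0.976), so these steps cannot be told apart from the set.

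Some markers of other cell types were called higher on these days, and their part in the early values was not tested. Of 6 macrophage markers, 5 were called higher against day 0 on each of days 1, 2, 3 and 6, with list medians between 1.51 and 1.73, and their mean lay above every day 0 tumour in every tumour of those days. Of 4 mast cell markers, 2 were called higher at day 1, 3 at days 2 and 3 and 4 at day 6. At days 1, 2, 3 and 6, in this order, 3, 1, 2 and 0 of 4 T and NK cell markers were called higher. So were 1, 2, 1 and 2 of 5 neutrophil markers and 1, 1, 2 and 1 of 2 Schwann cell markers. Of all genes, 7.57%, 6.74%, 9.74% and 5.74% were called higher on these days. The days shared no spike-in set with day 0, and no blocked value is given for the markers. At day 9 the numbers called higher were 1 macrophage and 0 mast cell markers, where 2.65% of all genes were.

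**Figure D5:**
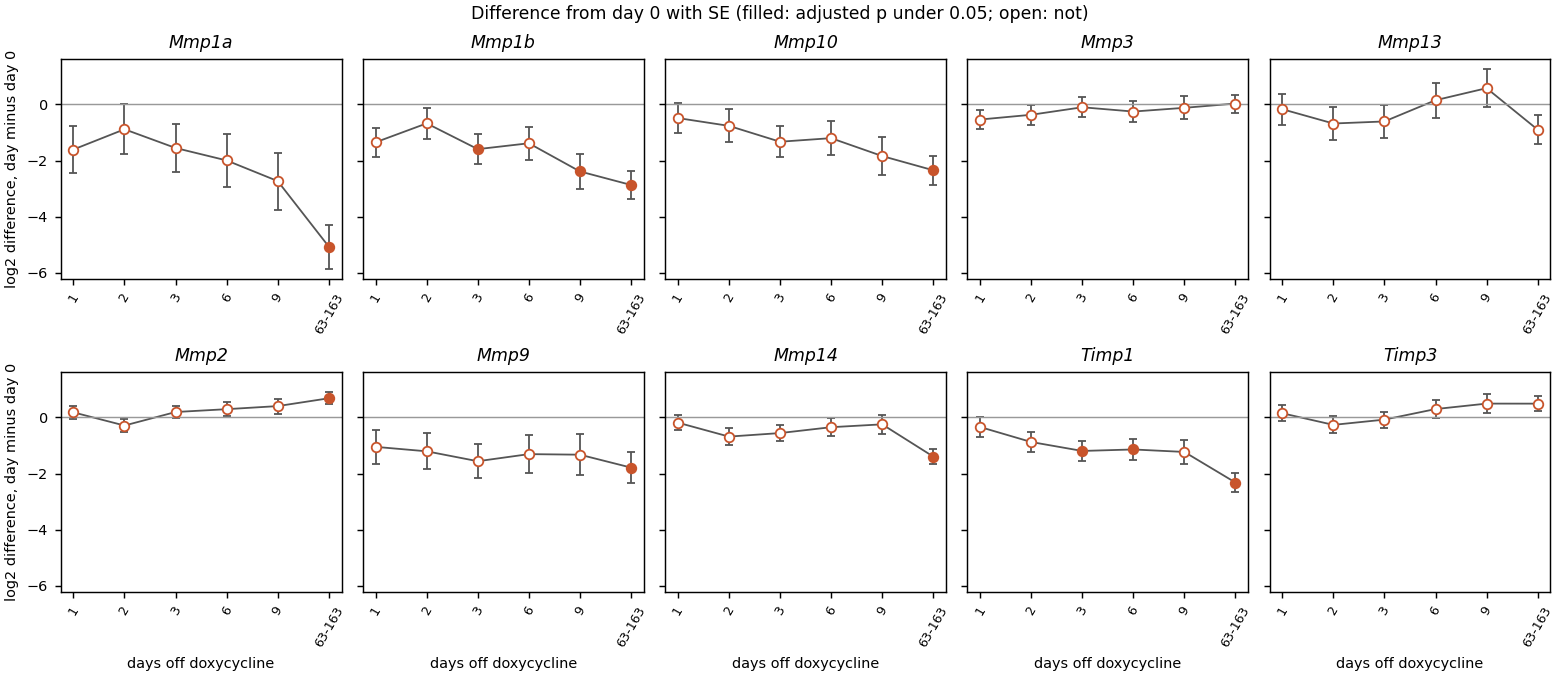
Difference of each member from day 0 (y axis, log2, with SE) at days 1, 2, 3, 6, 9 and in the late tumours (x axis); filled points have an adjusted p under 0.05. Mmp1a reaches -5.06 and Timp1 -2.32 in the late tumours, and the line of Mmp3 stays between -0.54 and 0.03.

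Genes of the chromosome 9 cluster were compared between tumours of the same day, with the mean of each of days 0 to 9 removed (29 tumours, 20 relations with those in late tumours). Mmp1a and Mmp1b varied together, with r = 0.886 (permutation p = 1e-05, the smallest that 100000 resamples can give, adjusted p = 0.0002), rho = 0.926 (permutation p = 1e-05) and r = 0.884 without the 2 farthest tumours. Mmp1b and Mmp10 had r = 0.795 (permutation p = 5e-05, adjusted p = 0.0005), rho = 0.763 (adjusted p = 0.0007) and r = 0.708 without the 2 farthest. Mmp1a and Mmp10 had r = 0.651 (permutation p = 0.00024, adjusted p = 0.0016), rho = 0.662 (adjusted p = 0.00373) and r = 0.611 without the 2 farthest. Mmp3 and Mmp13 had r = 0.478 (adjusted p = 0.0305) and rho = 0.484 (adjusted p = 0.0508). Mmp10 and Mmp13 had a like r of 0.495 (adjusted p = 0.0509) and rho = 0.434 (adjusted p = 0.108). Mmp1a with Mmp1b had r = 0.865, 0.994 and 0.893 within the 3 spike-in sets (16, 6 and 7 tumours), and Mmp1b with Mmp10 had 0.646, 0.902 and 0.876. In the same order of sets, Mmp1a with Mmp10 had 0.447, 0.921 and 0.756, so its r was lowest in the set with the most tumours, and Mmp3 with Mmp13 had 0.486, 0.509 and 0.585. Mmp1a with Mmp3 had r = -0.161 over all 29 tumours (adjusted p = 0.664) and 0.223, -0.738 and -0.018 by set. Mmp1a with Mmp13 had r = 0.136 (adjusted p = 0.664) and 0.132, -0.176 and 0.491 by set. By set, Mmp10 with Mmp13 had 0.645, 0.106 and 0.669. The remaining pairs were Mmp1b with Mmp3 (r = -0.083, adjusted p = 0.745), Mmp1b with Mmp13 (0.200, 0.649) and Mmp3 with Mmp10 (0.112, 0.737).

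Other genes that act on or with these enzymes were taken as lists, given for late tumours against day 0. In that comparison 20.1% of all genes were called lower and 26.3% higher, beside which the counts stand. Of 9 other metalloproteinase genes tested, Mmp16 was lower (-1.01 ± 0.36, adjusted p = 0.0211) and 8 did not pass. Of 3 other inhibitor genes, Timp4 (2.28 ± 0.30, adjusted p = 4.38e-07) and Reck, a membrane-anchored inhibitor (1.34 ± 0.28, adjusted p = 0.00027), were higher, and Timp2 differed by 0.38 (adjusted p = 0.0721). Timp4 averaged 7.19 in late tumours and 4.92 at day 0, and Reck 9.95 and 8.62. In the plasminogen activator system, whose proteases also activate proenzymes, 3 of 5 genes were lower and none higher. They were the activator genes Plau (-0.84 ± 0.10) and Plat (-1.12 ± 0.22) and the receptor gene Plaur (-2.11 ± 0.30, adjusted p = 1.75e-06).

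Of 12 ADAM and ADAMTS protease genes, 5 were lower, among them the aggrecanase gene Adamts4 (-1.43 ± 0.27) and Adam19 (-1.13 ± 0.19), and 1 was higher, Adamts5 (0.89 ± 0.17). Of 12 matrix substrate genes, 6 were lower, among them fibronectin, Fn1 (-1.53 ± 0.30), and the laminin genes Lama4 (-0.83 ± 0.14) and Lamc1 (-0.72 ± 0.15), and 2 were higher, elastin, Eln (1.78 ± 0.41), being 1 of them. Of 15 genes upstream of metalloproteinase transcription, 7 were lower and none higher, where 20.1% of all genes were called lower and 26.3% higher. The AP-1 genes Fosl1 (-2.35 ± 0.30, adjusted p = 2.29e-07), Junb (-1.79 ± 0.34) and Jund (-1.48 ± 0.22) and the ETS gene Etv4 (-1.46 ± 0.16, adjusted p = 2.86e-08) were among the 7. The medians of these lists were 0.14 for the other metalloproteinases, 1.34 for the other inhibitors, -0.84 for the plasminogen system, -0.29 for the ADAM genes, -0.58 for the substrates and -0.32 for the upstream genes, beside 0.05 over all genes. At day 1, 1 of the 15 upstream genes was called lower, Etv4 (-0.53 ± 0.17, adjusted p = 0.0311), where 6.25% of all genes were. At day 2, 3 of the 15 were called lower, Fosl1 (-1.15 ± 0.34, adjusted p = 0.0188) among them, where 8.35% of all genes were. Day 2 did not share a spike-in set with day 0. With the set as a block, 79 genes were called at day 2, against 2161 without it. No blocked value is given for Fosl1.

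Some markers of other cell types were called in late tumours against day 0, where 26.3% of all genes were called higher and 20.1% lower. The part of these markers in the results was not tested. The 2 Schwann cell markers that could be tested, Mal and Mbp, were both called higher, with a mean of the pair between 9.70 and 11.56 in late tumours and between 5.04 and 7.71 at day 0, without overlap. Keratinocyte markers (2 of 6 higher) had a mean between 5.83 and 11.93 in late tumours and between 5.71 and 9.16 at day 0, and neutrophil markers (2 of 5 higher, S100a8 and S100a9) lay between 7.19 and 9.95 in late tumours and between 6.76 and 8.26 at day 0. Fibroblast markers (3 of 6 higher, 1 lower) lay between 11.73 and 12.92 in late tumours and between 11.81 and 12.86 at day 0, and macrophage markers (1 higher and 1 lower of 6) lay between 9.26 and 10.49 in late tumours and between 8.88 and 10.51 at day 0. The higher ones of the mast cell (2 of 4), endothelial (1 of 4) and melanocyte (3 of 6) lists included Cpa3, Tek and Mitf, and of 4 T and NK cell markers none was called. The lowest deposited value in the whole table was 3.58 units, so no marker was at 0.

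Over all 41 tumours the tested gene most like each member was taken by Pearson r of log2 values, as a description of arrays that share sets, Gapdh gap and group. It was Pold4 for Mmp1a (0.90), Prl8a9 for Mmp1b (0.92) and Mmp10 (0.84), Cul7 for Mmp14 (0.92) and Aven for Timp1 (0.90). For Mmp2 it was Larp6 (0.81) and for Timp3 Kank2 (0.74). Mmp9 with Cdh6 (0.66), Mmp13 with Ccn4 (0.64) and Mmp3 with Cemip (0.63) had no gene above 0.70.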

How the data were processed

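Biotin-labelled cRNA of 41 mouse melanomas was hybridised, per the labels' protocols. Each probe set has 1 deposited intensity per array, on a linear scale, and the submitters' processing notes name MAS5 and RMA without versions and without saying which made it. A genome build for the arrays is not given in the sources used here. The arrays' median intensities lay between 51.8 and 57.4, none of the values was missing, and arrays have no depth, so precision is limited by how many arrays a group has.

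Values were turned into log2(intensity + 16) and quantile normalised between arrays. Of 45101 probe sets, 34958 named 1 gene, 932 several and 9211 none, and the first kind was used, with the probe set of highest mean for each of 18194 genes. The 14319 genes above the 40th percentile of their array in at least 3 arrays were tested in 1 limma fit (R 4.3.3, limma 3.58.1) of group means over 41 tumours, for 7 comparisons, with Benjamini-Hochberg adjustment over all genes. All adjusted p-values of genes and probe sets are limma's. Groups followed the days in the labels, with days 63 to 163 pooled, and days 16 and 29 entered no comparison.

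Spike-in sets were cut at a bioD level of 12 and a dap level of 9.4, and the Gapdh gap at 2, all log2. The members, lists, markers and these limits were chosen with earlier results of these data known. Every member and every probe set of a member was named, and from each list up to 4 genes with the lowest p in late tumours against day 0, or defining markers. The simulation of late tumours against day 0 covered 14319 genes, of which 200 were changed. Of the 200, 49.5% were recovered at 1.5-fold, 80% at 2-fold and 98% at 4-fold. In the same order, 7.48%, 5.88% and 5.77% of its calls were false. The measured comparison called 6648 genes, and its groups also differed in spike-in set and Gapdh gap. The simulated percentages are therefore not error rates of the calls reported here. Correlations used 100000 permutations, or every ordering for 8 tumours (Python 3.11.15, numpy 2.4.6, scipy 1.17.1). Promoters and gene places are from RefSeq, GRCm38.p6. Alternatives were median centring, a pseudocount of 1, no filter, probe sets averaged per gene, a robust fit with a trend, the compared groups alone, each tumour left out, spike-in sets as a block or one at a time, and the Gapdh gap as a covariate or limit. The other probe sets of Mmp2, Mmp9, Mmp14 and Timp3 as replacements, and the spike-in set that holds day 0 alone, were chosen after the data were seen.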

Additional observations from a re-analysis of the deposited data

Results flagged for a closer look

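Of 60 groups of 4 to 10 tumours, 1 for each member and day, 3 held a tumour far from the others, meaning that its gap to the nearest of them, divided by the range of the group, was above Dixon's 95% critical value. By the construction of that limit about 1 group in 20 is picked by chance, so 3 of 60 is the number that chance gives. Mmp2 in late replicate 6, taken at day 90, was 13.12, and the other late tumours lay between 12.38 and 12.72. Mmp9 in day 6 replicate 2 was 9.57, and the other 3 tumours of that day lay between 7.81 and 7.92. That tumour also had the lowest Mmp1a of its day (4.81) and the highest Timp3 (12.19). Mmp9 in late replicate 10, taken at day 163, was 10.70, and the other late tumours lay between 6.58 and 8.63. The mean of the neutrophil markers there, 7.19, was the lowest of the late tumours, and its Gapdh gap of 4.41 was the largest. Without this tumour Mmp9 differed between late tumours and day 1 by -1.06 (adjusted p = 0.03), against -0.74 (adjusted p = 0.188) with it.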

How the results depend on the processing

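Mmp1a, Mmp1b, Mmp14 and Timp1 in late tumours against day 0, and Timp1 against day 1, stayed called lower under every alternative run. Each other call of a member ended under at least 1 alternative that concerned the array set, the Gapdh gap, the filter, the centring, the groups fitted or a single tumour, and every group but the late one and day 1 held 6 tumours or fewer. The cause of the moves below was not tested, beyond the smaller number of tumours where some were left out. No paired analysis was possible because the labels give no numbers that link tumours of different days.

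Members called at day 6 were 0 with median centring, with no filter and with the spike-in block. With the compared groups alone they were 2 at day 2, 1 at day 3 and 0 at day 9, where 0 genes were called. The block gave 1 member at day 1 (Mmp3, -1.73, adjusted p = 0.0225) and 0 at day 3. Under the block, 79 genes were called at day 2, 134 at day 3, 70 at day 6 and 4306 in late tumours against day 0. As reported, these numbers were 2161, 3057, 1747 and 6648. The Gapdh gap as a covariate gave 2 members at day 2 (Mmp14 and Timp1), 3468 genes in late tumours against day 0 and 3680 against day 1 (7403 as reported). Without tumours of gap over 2, there were 1 member at day 2 (Timp1), 0 members and 24 genes at day 9 (653 as reported), 4 members and 4043 genes in late tumours against day 0, and 2 members and 3733 genes against day 1. The spike-in set of day 0 alone gave 2341 genes.

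Leaving out each tumour gave 0 to 1 members at day 1, 0 to 3 at day 3, 0 to 2 at days 6 and 9, 6 to 7 in late tumours against day 0 and 5 to 8 against day 1. Genes called ran from 889 to 2455, 1178 to 2080, 1633 to 3133, 832 to 1716 and 36 to 1237 at days 1, 2, 3, 6 and 9. Under median centring 67.6% of calls at day 1 were higher, against 54.8% as reported.

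Signs that turned were all of differences that had not been called. In late tumours against day 0, Mmp13 was 0.29 with the gap covariate and 0.92 without gaps over 2, Mmp3 was -0.84 with the block or the day 0 set alone, and Timp3 was -0.54 as the mean of its probe sets, -0.14 without gaps over 2 and -0.81, -0.82 and -1.03 by its other probe sets. Against day 1, Mmp13 was 0.43 and 1.09 with the same gap settings, and Timp3 was -0.11, -0.29, -0.41 as a mean, and -0.43, -0.56 and -0.98 by probe set. At early days the mean of probe sets gave Timp3 -0.14 at day 1 and -0.079 at day 9. The block gave Mmp9 0.0063 and Timp1 0.45 at day 1, Timp1 0.17 at day 2, and Mmp13 -0.92 and Timp3 -0.15 at day 6. The gap covariate gave Timp3 0.010 at day 3, Mmp13 -0.16 at day 6 and Mmp3 0.063 at day 9, and Mmp14 at day 9 was 0.10 without gaps over 2. With single tumours left out, ranges that crossed 0 were -0.91 to 0.20 for Mmp10 and -0.55 to 0.28 for Mmp13 at day 1, -0.28 to 0.038 for Mmp3 and -0.19 to 0.094 for Timp3 at day 3, -0.23 to 0.60 for Mmp13 and -0.046 to 0.46 for Timp3 at day 6, -0.36 to 0.20 for Mmp3 and -0.54 to 0.10 for Mmp14 at day 9, and -0.15 to 0.17 for Mmp3 in late tumours against day 0.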

Other observations

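Single late tumours differed among themselves in the collagenase and stromelysin genes. Mmp13 was 12.68, 12.44 and 11.86 in late replicates 5, 1 and 8, and at most 10.73 in the other 7. The same 3 tumours had the highest late values of Mmp1a (5.99, 5.55 and 5.67), at levels near the floor, and Mmp3 (13.69, 13.47 and 13.71). No correlation over the late tumours is given, because these 3 stand apart from the rest in Mmp13. Their Gapdh gaps of 0.60, 2.19 and 0.27 were the smallest of the late tumours. Within the 8 late tumours of gap over 2, no relation of these 3 genes with the gap passed the exact permutation test, with r = -0.188 for Mmp13, -0.512 for Mmp3 and -0.592 for Mmp1a. Replicates 5 and 8 are not among these 8, so these values do not bear on why the 3 tumours stand apart, which was not tested. The single tumour of day 29 had the highest Mmp2 of all 41 tumours, 13.21, and a Mmp3 of 11.46.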
